A study of Mus musculus with 2 samples.

Results

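AP-1 is the family of dimeric leucine zipper transcription factors built from FOS and JUN proteins. The members described here were the 4 FOS family genes Fos, Fosb, Fosl1 and Fosl2, the 3 JUN family genes Jun, Junb and Jund, and the related genes Atf3 and Maff. Every probe set annotated to 1 of these symbols was taken, which gave 13 probe sets for the 9 genes, among 34945 probe sets for 18193 genes in all. The cells were HT22, a nerve cell line from mouse hippocampus, and mRNA was measured on Affymetrix mouse GeneChips. One culture had received J147, a neurotrophic drug candidate for Alzheimer's disease, for 1 h, and the other had received the DMSO vehicle for 1 h. Both had been grown overnight in DMEM with 10% fetal calf serum. The J147 concentration was 10 μM by the methods and 10 mM by the sample labels. With 1 array per condition there was no replicate, so no test could be run and no p-value is given. An effect of J147 and a chance difference between the 2 cultures cannot be told apart. For bulk RNA, more mRNA per cell and more cells that carry the mRNA cannot be told apart either.

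FOS proteins cannot pair with each other and bind DNA together with a partner, usually a JUN protein, whereas JUN proteins also pair among themselves. The dimers bind the AP-1 site TGACTCA. Several members are immediate early genes, switched on within minutes when growth factors, serum or depolarization activate the MAP kinases ERK and JNK. Fos and Fosb mRNA appears as a brief burst, whereas Fosl1, which encodes FRA-1, is itself induced by ERK signaling and is known to follow later and last longer. Atf3 is a stress-induced factor that can pair with JUN. Maff encodes a small MAF protein, which has a zipper but no activation domain of its own and pairs with CNC factors such as NRF2.

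Levels are gcRMA intensities on the log2 scale, and a difference is the level with J147 minus the level with vehicle. The lowest value of the table, 2.23, is a floor at which 46.0% of all probe sets lay on the J147 array and 46.3% on the vehicle array. A probe set at the floor gives no level and does not show that the mRNA was absent: one probe set of the housekeeping gene Tbp, 1426470_at, was at it on both arrays, while the other, 1426469_a_at, had 8.41 with J147 and 8.49 with vehicle. Probe sets with a mean intensity above 100 over both arrays, after each array was scaled to a median of 100, were scored, as the methods describe. This kept 22545 probe sets, and 18.9% of them had exactly the same value on both arrays. On the scaled intensities the floor was 95.1 with J147 and 95.4 with vehicle, so probe sets just above the floor were scored too. Of those scored at a mean level between 2 and 4, 49.7% were identical on both arrays. The shares over all scored probe sets and genes given below include such probe sets. Of 8 markers of neurons, 6 were at the floor on both arrays, among them Map2 and Rbfox3, and Tubb3 and Syp were above it. All 7 fibroblast markers were above it. Of 5 astrocyte markers 2 were above it, Slc1a3 and Gja1, of 5 microglia markers 1, Csf1r, and of 4 oligodendrocyte markers none. The 3 probe sets for 18S rRNA had a median difference of -0.62, the 24 for labelling spikes -0.15 and the 18 for hybridization spikes 0.14. Their part in the results was not tested.

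Fosl1 and Maff stood out on the J147 array, and Junb was higher by less. Of the 10 scored AP-1 probe sets, 3 were 1.5-fold or more higher with J147, both probe sets of Fosl1 and the single one of Maff. Over all scored probe sets, 0.887% were that much higher. None of the 10 was at least 1.5-fold lower, where the share over all scored probe sets was 0.75%, and the other 7 were neither. None reached 2-fold in either direction, against 0.146% of all scored probe sets. When each gene was read by its brightest probe set, 2 of the 7 scored AP-1 factors were at least 1.5-fold higher with J147, against 0.565% of the 10611 scored genes. The differences of the 7 genes ran from -0.27 for Jun to 0.88 for Maff, with a median of 0.03, where all scored genes had a median of 0.00. Fosb and Atf3 were not scored.

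**Figure D1:**
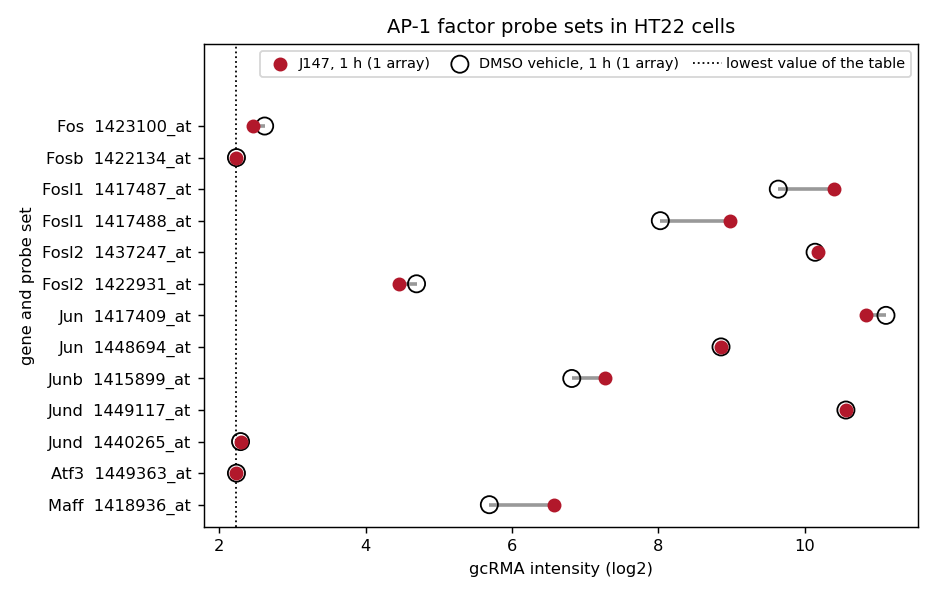
Each row is a probe set of an AP-1 factor, with its gcRMA intensity on the log2 scale on the horizontal axis, for J147 (filled circle) and vehicle (open circle), 1 array each, and a grey line between them. The floor of 2.23 is dotted. The J147 circle lies well to the right for both Fosl1 probe sets, Junb and Maff, and to the left for Fos, the dimmer Fosl2 probe set and the brighter Jun probe set, and the circles of the others overlap almost fully.

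Because several members are switched on through short elements close to the start of the gene, the 150 bases before the start were read for 8 of the 9 members from RefSeq (GRCm38.p6). Fosl1 was not among them. Of the 10 windows found, 3 belonged to Maff. They were searched on both strands for TGACTCA (AP-1 site), TGACNTCA (cAMP response element or ATF site), TGACG (the first letters of that element, also found inside its full form TGACGTCA), CTA and TAG with 4 bases between them (MEF2 site), the CArG box bound by SRF, and TATAAA. The 5 windows below are shown because they belong to the genes that were higher with J147 (Junb, and Maff by the second of its 3 windows, picked after the search for its full element) and to classic early genes with no higher value there (Jun) or with values near or at the floor (Fos and Atf3), 5′ to 3′ with every match in capitals.
Maff chr15:79347370-79347519, strand +: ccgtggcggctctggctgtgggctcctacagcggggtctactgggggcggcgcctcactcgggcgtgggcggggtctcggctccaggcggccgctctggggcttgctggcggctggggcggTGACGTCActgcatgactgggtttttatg
Junb chr8:84978749-84978898, strand -: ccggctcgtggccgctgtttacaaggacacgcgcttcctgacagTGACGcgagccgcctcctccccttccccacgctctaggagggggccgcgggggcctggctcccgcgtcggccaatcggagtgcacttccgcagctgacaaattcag
Jun chr4:95052223-95052372, strand -: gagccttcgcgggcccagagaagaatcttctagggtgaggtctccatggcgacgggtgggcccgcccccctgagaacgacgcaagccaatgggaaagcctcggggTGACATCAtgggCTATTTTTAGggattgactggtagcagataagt
Fos chr12:85473740-85473889, strand +: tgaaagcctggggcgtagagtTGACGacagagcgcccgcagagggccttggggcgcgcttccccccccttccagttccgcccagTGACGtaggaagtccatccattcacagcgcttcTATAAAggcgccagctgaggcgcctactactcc
Atf3 chr1:191183334-191183483, strand -: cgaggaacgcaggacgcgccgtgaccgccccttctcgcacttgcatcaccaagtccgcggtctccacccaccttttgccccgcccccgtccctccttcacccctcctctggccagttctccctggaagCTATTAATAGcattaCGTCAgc
The letters TGACNTCA were found in Maff as TGACGTCA, beginning 29 bases before the start, and in Jun as TGACATCA, beginning 45 bases before it. In the third window of Maff they again read TGACATCA, at 45 bases before that start. Over all 32851 RefSeq windows of this length, 5.7% hold TGACNTCA. TGACG was found in 6 of the 10 windows, from 5 of the 8 genes, namely Fos, Fosb, Junb, Atf3 and Maff. It was found in 13.3% of all windows. The MEF2 letters were found in Jun and Atf3 and in 1.82% of all windows, and TATAAA in Fos and 7.57% of all windows. TGACTCA and the CArG box were in none of the 10 windows, and in 2.84% and 0.916% of all windows. Sequence beyond the 150 bases before the start was not searched, so sites elsewhere in these genes would not show. Of the genes higher with J147, Maff thus shared TGACNTCA with Jun, and Junb shared TGACG with Fos, Fosb and Atf3. The motifs were chosen after the windows were seen, so their counts in the members cannot be tested against the shares over all windows. A match in letters is not evidence of binding.

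In the FOS family, Fosl1 was higher with J147 by both of its probe sets. FRA-1, its product, lacks the strong activation domain of FOS and is a regular AP-1 subunit of migrating and growth-stimulated cells. Probe set 1417487_at had a level of 10.40 with J147 and 9.64 with vehicle, a difference of 0.76 or 1.70-fold. Both levels were far from the floor, by 8.17 and 7.41. Without replicates, the scatter of other probe sets is the only yardstick. It is a spread over probe sets and not over replicate cultures, so it does not measure how much a gene varies between cultures. The 500 scored probe sets nearest in level had an SD of their differences of 0.13, and 0 of them differed by as much. Probe set 1417488_at of Fosl1 had 8.98 with J147 and 8.03 with vehicle, a difference of 0.95 or 1.93-fold, where the SD of its neighbours was 0.18 and 2 of the 500 differed by as much. Both probe sets of Fosl1 were thus higher with J147, at place 68 and place 26 from the top of the 22545 scored probe sets. Their differences lay 0.18 apart. Over 2577 genes with 2 scored probe sets whose values were not identical, the median of this gap was 0.11 and its 90th percentile 0.35.

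Fosl2 encodes FRA-2, the other late FOS family protein, and its probe sets gave small differences in opposite directions. The brighter, 1437247_at, had 10.18 with J147 and 10.14 with vehicle, a difference of 0.03, and 334 of its 500 neighbours differed by at least that much. The dimmer, 1422931_at, had 4.46 with J147 and 4.70 with vehicle, a difference of -0.24 against an SD of 0.25 among its neighbours. The 2 probe sets of Fosl2 lay 0.27 apart in their differences.

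Fos and Fosb could not be judged well on these arrays. The single probe set of Fos, 1423100_at, had 2.46 with J147 and 2.62 with vehicle, only 0.23 and 0.39 above the floor. Its difference of -0.16 was near the SD of 0.15 of its neighbours, of which 79 differed by at least as much. Fosb, measured by 1422134_at, was at the floor on both arrays. No higher level of Fos or Fosb mRNA was therefore seen at 1 h, but at this level a change that stayed below the floor would not show.

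In the JUN family, Junb was higher with J147, Jun was lower by 1 of its probe sets, and none passed 1.5-fold. Junb, which encodes a JUN protein with weaker transactivation than JUN itself, had 7.27 with J147 and 6.82 with vehicle by its only probe set, 1415899_at. The difference of 0.45, or 1.37-fold, did not reach 1.5-fold. Among its 500 neighbours, whose SD was 0.20, 17 differed by at least as much, and Junb was at place 378 from the top. Jun had 2 probe sets. The brighter probe set, 1417409_at, had 10.84 with J147 and 11.11 with vehicle, a difference of -0.27 that makes Jun 1.21-fold lower with J147. The SD of the neighbours at this level was 0.12, and 12 of the 500 differed by as much. The other Jun probe set, 1448694_at, had 8.86 on both arrays, identical in every deposited digit. Such identical pairs made up 5.6% of the scored probe sets with a mean level between 8 and 10, and where they come from was not tested. The lower level of Jun therefore rests on 1 probe set. Jund, the JUN protein that is known to be present without stimulation, had 10.56 with J147 and 10.57 with vehicle by 1449117_at, and 458 of its 500 neighbours differed by at least as much. The second Jund probe set, 1440265_at, had 2.29 on both arrays, 0.06 above the floor, and was not scored.

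Maff had the largest difference of the 7 scored members when each was read by its brightest probe set. Its only probe set, 1418936_at, had 6.57 with J147 and 5.69 with vehicle, 4.34 and 3.46 above the floor. The difference was 0.88, or 1.84-fold, against an SD of 0.23 among its neighbours, of which 2 of 500 differed by as much, and Maff was at place 37 from the top. Atf3 is often induced together with Jun and Fos by stress. Its only probe set, 1449363_at, was at the floor on both arrays, so the data give no level of Atf3 and no difference.

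**Figure D2:**
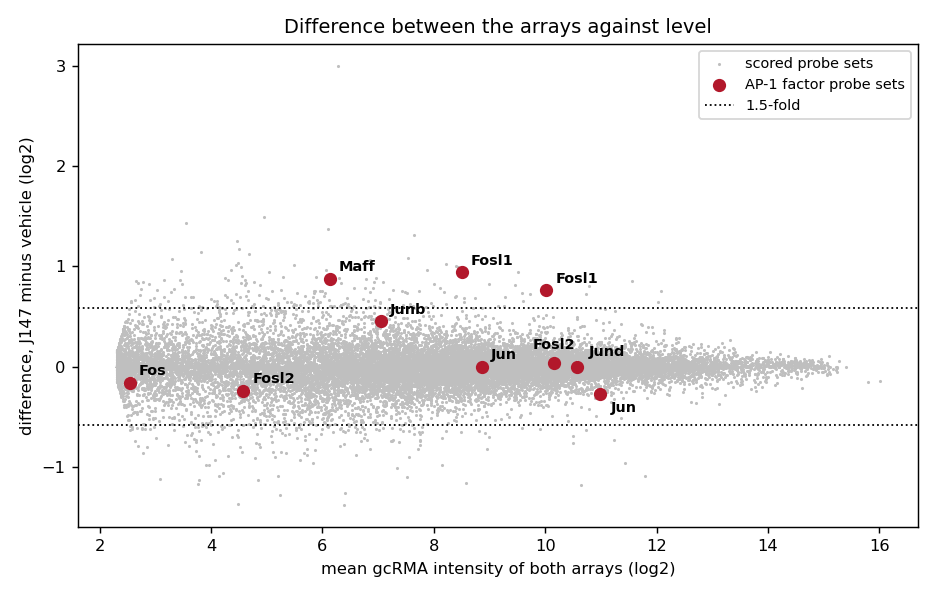
Difference, J147 minus vehicle, on the log2 scale (vertical axis) against the mean level of both arrays on the log2 scale (horizontal axis) of the 22545 scored probe sets (grey), with the 10 scored AP-1 probe sets in red and dotted lines at 1.5-fold. Maff and both probe sets of Fosl1 lie above the upper line, Junb lies below it at 0.45, and none lies under the lower line.

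Partners with which AP-1 proteins pair were read as separate lists. A list of ATF, C/EBP and BATF type partners had 10 scored genes, none of the BATF type, as Batf, Batf2 and Batf3 were at the floor. Of the 10, none was 1.5-fold or more higher and 1 was 1.5-fold or more lower with J147, with a median difference of -0.03. Over all scored genes 0.565% were that much higher and 0.782% that much lower. The gene was Atf7, whose product is close to ATF2 and pairs with JUN and FOS, at 4.05 with J147 and 4.64 with vehicle. Atf7 lay just past the threshold, and its difference of -0.59 became -0.57 once the trend with level was removed and -0.53 with a pseudocount of 50. The other probe set of Atf7, 1425653_at, was at the floor. Of 7 scored genes of the MAF and CNC families, which include partners of MAFF, none passed 1.5-fold and the median was 0.19. The shares over all scored genes were again 0.565% higher and 0.782% lower. The largest differences were those of the small MAF gene Mafk, with 7.41 for J147 and 7.01 for vehicle, a difference of 0.40, and of Maf, with 3.13 for J147 and 3.49 for vehicle, a difference of -0.35 at a low level. Mafg, the remaining small MAF gene, picked after its values were seen, had 10.55 for J147 and 10.36 for vehicle, a difference of 0.19. Of the 3 small MAF genes, Maff, Mafk and Mafg, only Maff was 1.5-fold or more higher, against 0.565% of all scored genes. Whether the 3 genes differ from each other was not tested.

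Of 13 scored transcription factors that act on AP-1 promoters, none was 1.5-fold or more higher and 1 was that much lower with J147. It was Mef2c, a MADS box factor of muscle and neurons, and the median of the list was 0.00. Over all scored genes 0.565% were that much higher and 0.782% that much lower. The brightest probe set of Mef2c, 1421027_a_at, had 4.92 with J147 and 5.55 with vehicle, 1.55-fold lower, but 1424852_at had 5.02 on both arrays. None of 15 scored MAP kinase pathway genes passed 1.5-fold, against the same shares over all scored genes, with a median of 0.00. Mapk7, which encodes ERK5, had a difference of 0.37 and Map2k3, one of the kinases that activate p38, 0.32. None of 14 scored genes for the turnover and cofactors of AP-1 proteins passed either, against the same shares, with a median of -0.08. Ep300, the acetyltransferase p300, had -0.31, and Csnk2a1, a subunit of casein kinase II, -0.24 by the brightest of its 6 probe sets, while the other 5 had differences between 0.00 and 0.05. The arrays measure mRNA and hold no information on the phosphorylation that activates these kinases and their AP-1 substrates.

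Genes known as AP-1 targets held 3 that were at least 1.5-fold higher with J147 among 16 scored, none that was lower and 13 that were neither. Over all scored genes 0.565% were that much higher and 0.782% that much lower. The median was 0.13, or 0.04 with no filter on intensity, against 0.00 for 10 housekeeping genes, none of which passed 1.5-fold. The largest differences among the housekeeping genes were -0.12 for B2m, a subunit of MHC class I, and -0.08 for Tbp, the TATA-binding protein. Plaur, the urokinase receptor, had 8.93 with J147 and 7.93 with vehicle, just short of 2-fold higher. Hbegf, a growth factor of the EGF family, had 7.07 with J147 and 6.07 with vehicle, 1.99-fold higher, and its second probe set was 2.05-fold higher. Ptgs2, the inducible cyclooxygenase, had 9.86 with J147 and 9.05 with vehicle, 1.75-fold higher, and its second probe set was 1.79-fold higher. The list was drawn up with earlier results of these data known, and binding of AP-1 was not measured. The metalloproteinase genes Mmp3, Mmp10 and Mmp13, which are classic AP-1 targets, and Il6 were at the floor on both arrays.

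**Figure D3:**
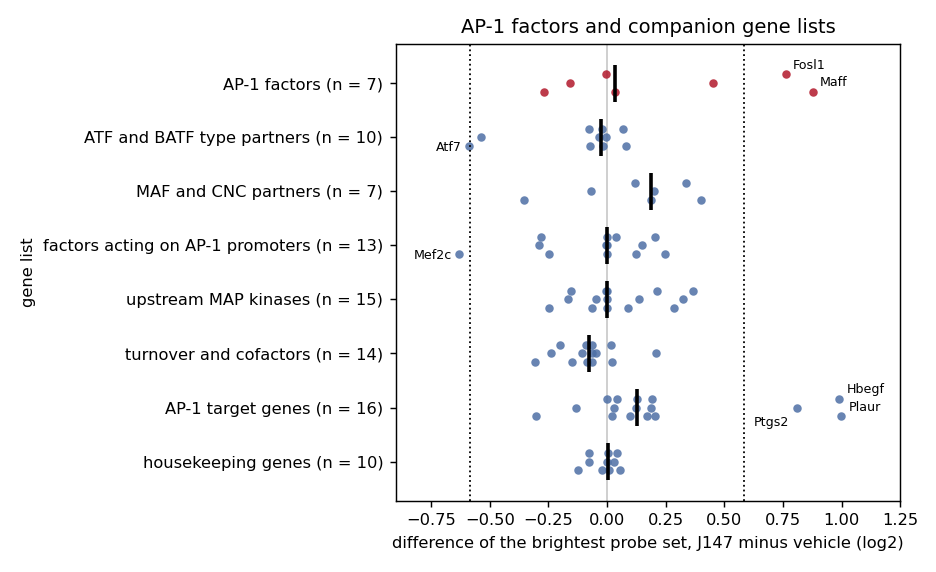
Difference of the brightest probe set of each scored gene, J147 minus vehicle on the log2 scale (horizontal axis), for the AP-1 factors (red) and the companion lists (blue), with the number of scored genes in parentheses, the median as a black bar and dotted lines at 1.5-fold. Fosl1 and Maff, and the target genes Plaur, Hbegf and Ptgs2, lie right of the dotted line at the right, and Atf7 and Mef2c lie left of the other.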

How the data were processed

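RNA from 1 J147-treated and 1 vehicle-treated HT22 culture was labelled with biotin and hybridized to 1 array each. The authors ran gcRMA in R to obtain a value per probe set, and the deposited values are log2 intensities that are not scaled to a median of 100. Quality assessment used Affymetrix Expression Console version 1.0, and the version of gcRMA is not given in any source used here. Of 45037 probe sets that are not controls, 34945 have 1 gene symbol, 932 have several and 9160 have none in the annotation used. Symbols were updated through the Entrez number to RefSeq (GRCm38.p6). The deposited table names no genome build.

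Differences were taken from the deposited values, and the scaling to a median of 100 served only to score probe sets and as an alternative. Each gene was represented by the probe set whose mean level was highest. With 1 array per group there was no test, and the number of arrays limits the precision. The members, gene lists and thresholds were chosen with earlier results of these data known. All 9 members are named, and from each list the genes past 1.5-fold or else the 2 with the largest difference. The floor of Mmp3, Mmp10, Mmp13 and Il6 and the choice of Tbp as an example of the floor were added after their values were seen, and the promoter motifs were chosen after the windows were seen. Genes that the annotation does not list are not analysed here. Alternatives were median scaling, quantile normalization, a lowess curve (span 0.3), a pseudocount of 50, other intensity filters, probe set rules and thresholds of 1.25-fold and 2-fold. Python 3.11.15 was used with pandas 2.3.3, numpy 2.4.6, statsmodels 0.14.6 and matplotlib 3.10.9, and calculations were tested on simulated data.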

Additional observations from a re-analysis of the deposited data

How the results depend on the processing

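Alternatives gave 200 values, of which 194 stayed near the one reported, which means within 1.5 times for counts, within 1 SD of the 500 neighbours for a single probe set and within 0.1 log2 units for medians. The other 6 moved, and 0 of the values past 1.5-fold changed direction. Single probe sets under rescaling gave 108 of the values, and all 108 stayed near. Counts and medians gave 92, of which 86 stayed near. Rescaling of the same arrays does not measure how far replicate cultures would differ. The 3 AP-1 probe sets past 1.5-fold became 0 at 2-fold. The median of the AP-1 genes, 0.03, was 0.24 with a mean scaled intensity above 200, which leaves out Fos. The median of the MAF and CNC genes, 0.19, was 0.0601 without any intensity filter and 0.34 by the probe set with the largest absolute difference. The median of the AP-1 target genes, 0.13, was 0.04 without any intensity filter. The 2 AP-1 probe sets at the floor became 4 with a margin of 0.5 log2 units and 4 with a margin of 1, which add Fos and the dimmer Jund probe set. Under the scalings tried, Fosl1 stayed at 0.76 by 1417487_at and ranged from 0.94 to 0.96 by 1417488_at, Maff from 0.84 to 0.91, Junb from 0.44 to 0.48 and Jun from -0.28 to -0.27 by 1417409_at. Of the probe sets named, 1 lost its 1.5-fold difference, that of Atf7. No paired analysis was possible because each group has 1 array, and no replicate could be left out. A change of Fosb or Atf3 that stayed below the floor would not show.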
